A study of Mus musculus with 12 samples.

Results

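The genes of the melanocortin receptors, Mc1r, Mc2r, Mc3r, Mc4r and Mc5r, and of their accessory proteins, Mrap and Mrap2, were followed through the open chromatin of mouse brown and inguinal fat. In ATAC-seq, a transposase places sequencing adapters into accessible DNA, so that the reads at a site measure how open the chromatin is there. Every peak to which a deposited table assigned 1 of the 7 gene symbols was taken, which gave 29 of 98116 peaks. Of these, 19 of 58558 peaks were in brown fat and 10 of 39558 in inguinal fat. All mice were of the C57BL/6 strain and carried floxed alleles of BAF60a, which Smarcd1 encodes and which belongs to the SWI/SNF family of chromatin remodellers. AKO mice also carried Adiponectin-Cre, which acts in adipocytes, so that other cells of the whole tissue retain the gene. Brown fat came from 3 flox and 3 AKO mice, 1 mouse per sample, and their age and housing temperature were not given in the sources used here. Inguinal fat came from mice of 6 to 8 months that were kept at 10 °C for 7 days. The fat pads of 6 mice were pooled per genotype and the pool was divided into aliquots, so that the 3 samples per genotype share the same mice.

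Melanocortin receptors are G-protein coupled receptors for the peptides cut from pro-opiomelanocortin, and they signal mainly through cyclic AMP and protein kinase A. MC1R is the receptor of pigment cells, MC2R is the receptor for adrenocorticotropic hormone (ACTH) in the adrenal cortex, MC3R and MC4R act in the brain on energy balance, and MC5R is found in exocrine glands. MC2R reaches the cell surface only with the accessory protein MRAP, and both are also expressed in mouse adipocytes, where ACTH stimulates lipolysis. MRAP2 is a homolog of MRAP that modulates MC4R and other receptors.

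The peaks were spread unevenly over the genes. Mc2r held 9 peaks in brown fat and 4 in inguinal fat, and Mrap held 6 and 4. Mc5r held 2 peaks in brown fat and 1 in inguinal fat, Mc1r held 1 in each depot, and Mrap2 held 1 in brown fat and none in inguinal fat. Mc3r and Mc4r held no peak in either depot. By RefSeq transcripts on mm10, the peak nearest to the start of Mc3r lay 97.1 kb away in brown fat and 97.0 kb away in inguinal fat, and both tables assigned it to Fam210b. The nearest peak to the start of Mc4r lay 228 kb away in brown fat and 104 kb away in inguinal fat. Peaks covered a start site of Mc2r, Mc5r and Mrap in both depots and that of Mrap2 in brown fat, whereas no peak in either depot covered the start of Mc1r. Both Mc1r peaks lay upstream in introns of the neighbouring gene Tcf25, and the Mrap peaks farthest downstream lay in Urb1, so their assigned genes are the nearest start sites and not the genes that contain them. In brown fat, 6 of the 19 peaks lay in the assigned gene, 4 in another gene and 9 between genes, and in inguinal fat these counts were 5, 2 and 3.

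Stretches of 3 Mrap peaks are shown because they hold a match to the motif of a factor family known from adipocytes. Each is the forward strand of mm10, read 5′ to 3′ from the RefSeq assembly GRCm38.p6, with the motif match in capitals. The first, chr16:90737058-90737308, belongs to the peak over the Mrap start and lies upstream of it. The second, chr16:90747248-90747373, belongs to the peak in intron 1 of the coding transcript. The third, chr16:90753482-90753732, belongs to the peak in Urb1.
Mrap start-site peak, C/EBP match: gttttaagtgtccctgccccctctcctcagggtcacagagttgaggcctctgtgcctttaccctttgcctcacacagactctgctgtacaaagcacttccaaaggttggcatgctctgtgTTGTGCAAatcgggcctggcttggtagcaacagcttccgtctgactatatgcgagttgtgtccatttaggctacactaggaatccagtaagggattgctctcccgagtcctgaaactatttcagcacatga
Mrap intron 1 peak, NF1 match: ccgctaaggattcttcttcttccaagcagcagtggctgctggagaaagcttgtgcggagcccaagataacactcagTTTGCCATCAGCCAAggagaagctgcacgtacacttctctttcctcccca
Mrap-assigned peak in Urb1, DR1 match: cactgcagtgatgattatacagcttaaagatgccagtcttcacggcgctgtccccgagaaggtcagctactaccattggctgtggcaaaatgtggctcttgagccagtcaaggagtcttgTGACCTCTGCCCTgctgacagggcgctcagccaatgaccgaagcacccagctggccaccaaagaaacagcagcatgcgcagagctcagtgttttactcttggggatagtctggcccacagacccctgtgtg

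All member peaks were searched on both strands for 5 motifs. C/EBP was TTGCNNAA, EBF was TCCCNNGGGA and the cyclic AMP response element was TGACGTCA, each matched exactly, while NF1 was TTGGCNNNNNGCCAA with at most 1 mismatch and DR1, the repeat bound by PPAR with RXR, was AGGTCANAGGTCA with at most 2. No match overlapped another, and EBF and the response element matched in no member peak. The Mrap start-site peak held 3 C/EBP matches, and 51.9% of brown fat peaks of like width held at least 1. The start-site peak of Mc2r held 1 such match, the same one in both depots, as did 25.9% of brown fat and 20.7% of inguinal peaks of like width. The Urb1 peak held 1 DR1 match, as did 27.7% of brown fat peaks of like width, and the match lay in the peak of each depot. The intron 1 peak of Mrap held 1 NF1 match, as did 0.827% of brown fat peaks of like width. The brown fat peak 16.0 kb upstream of Mc2r held 1 DR1 and 1 C/EBP match, as did 27.5% and 48.0% of brown fat peaks of like width, and neither lay within the narrower inguinal peak at that place. A match describes these letters only and is no evidence of a bound factor.

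Values are normalized reads, the reads in a peak divided by 1 size factor per sample. Reads in peaks ran from 6336670 to 27500738 per brown fat sample and from 4066720 to 6691161 per inguinal sample. AKO replicate 2 of brown fat stood apart, with the fewest reads, the lowest share of reads in the strongest 5% of peaks (21.0% against 24.5% to 27.0% in the other 5 samples) and the highest score, 112, on principal component 1 (PC1). The intron 4 peak of Smarcd1, the targeted gene, held 136, 201 and 185 normalized reads in flox mice and 23.7, 57.9 and 26.9 in AKO mice, so the labels matched the genotype there. In inguinal fat the gene had only its promoter peak, which overlapped between the genotypes. Promoter peaks of 6 of 6 adipocyte markers were present in both depots, and those of macrophage, lymphocyte and melanocyte markers were absent (0 of 4 each). Those of stromal (3 of 4), endothelial (2 of 4) and skeletal muscle (1 of 4) markers were present in part in both depots. Of 3 Schwann cell markers, 1 had a promoter peak in brown fat and 0 in inguinal fat. Of 6 thermogenic markers, 6 had one in brown fat and 4 in inguinal fat. Of the adrenal cortex markers, promoter peaks of Cyp11a1 and Nr5a1 were present in brown fat, with summed reads of 69.5 to 85.4 in flox and 73.9 to 120 in AKO mice, those of Star and Cyp11b1 were absent, and none was present in inguinal fat. Fewer cells of a type and less open chromatin per cell cannot be told apart in whole tissue.

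AKO was compared with flox within each depot, by the lmFit and eBayes functions of limma on log2(normalized reads + 1) of all peaks and a Benjamini-Hochberg adjusted p under 0.1 as the threshold for a call. In brown fat the PC1 score was a covariate, as in the study's methods, so the fitted log2 fold changes need not equal the ratios of the means. The scores were −98.2, −41.8 and 14.6 in flox and −0.617, 112 and 13.5 in AKO replicates 1, 2 and 3. They were thus not independent of genotype, and the covariate can take up part of a genotype difference. The 3 samples against 3 allow no exact permutation p under 0.1. None of the 29 member peaks passed the threshold by limma, by DESeq2 or by edgeR, although DESeq2 gave an adjusted p to only 14 of the 19 brown fat peaks. The intron 4 peak of Smarcd1 did not pass by limma either, with a log2 fold change of −2.98 (adjusted p = 0.269). It passed by DESeq2 (−2.97, adjusted p = 4.04e-11). The lack of a limma call thus does not show that a peak is unchanged. Across all peaks limma called 0% in both directions and both depots, while DESeq2 called 0.217% as lower and 0.0803% as higher in brown fat and 0.569% and 0.493% in inguinal fat. The shares by edgeR were 0.114% and 0.029% in brown fat and 2.52% and 2.15% in inguinal fat. The member peaks held between 23 and 3251 reads per sample in brown fat and between 16 and 585 in inguinal fat.

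**Figure D1:**
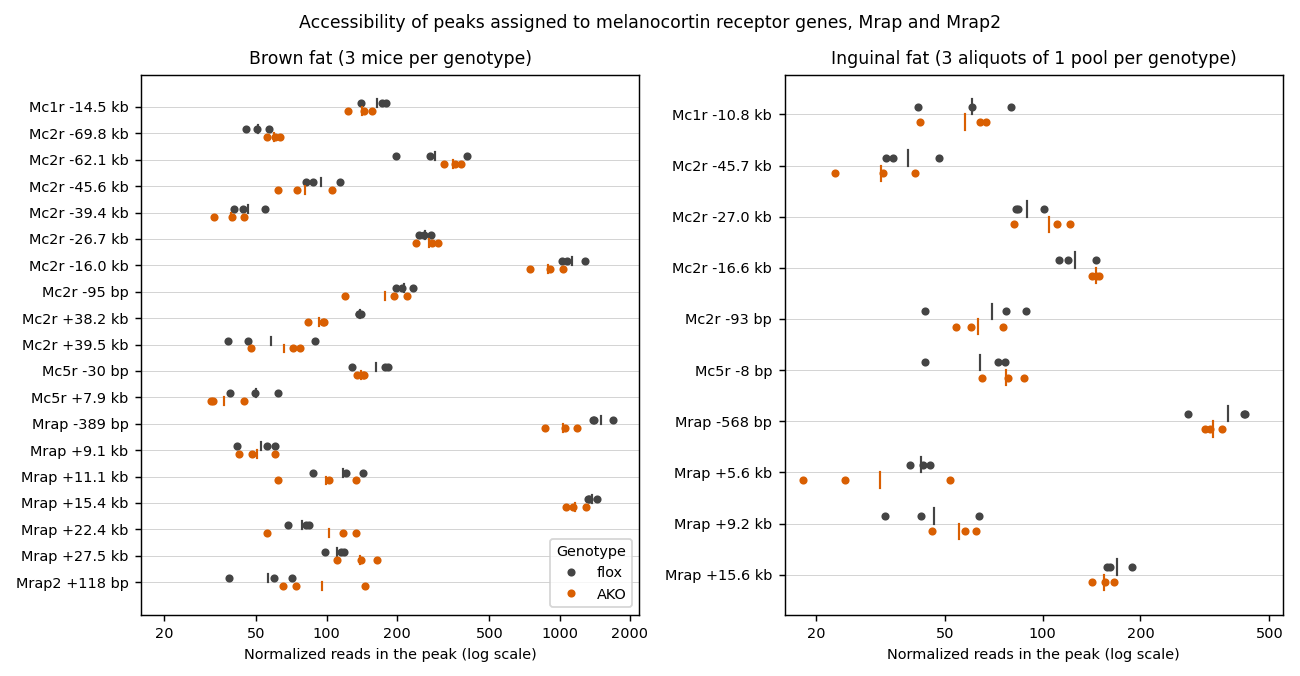
Normalized reads (log axis) of every member peak in each sample, flox in grey and AKO in orange, with a short bar at the mean of 3 samples and peaks named by gene and distance from the nearest start site. In brown fat the Mrap peaks at 389 bp upstream and 15.4 kb downstream and the Mc2r peak 38.2 kb downstream have every AKO sample below every flox sample, and no inguinal peak separates the genotypes.

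In brown fat, 3 of 19 member peaks (15.8%) had every AKO mouse below every flox mouse, and none had every AKO mouse above. Over all brown fat peaks, 8.84% were separated in the lower and 8.77% in the higher direction. The difference between the members' share and that background was not tested. The 3 peaks were the start-site peak of Mrap, the Mrap-assigned peak in Urb1 and the Mc2r peak 38.2 kb downstream. Leaving out a sample can only keep or raise a count of separated peaks, in either depot. The count of lower peaks was 5 without flox replicate 2, flox replicate 3, AKO replicate 1 or AKO replicate 2. The share over all peaks was then 12.3%, 16.9%, 15.3% and 12.9%. The count of higher peaks went from 0 to 4 without AKO replicate 3, with 13.97% over all peaks. At an unadjusted limma p under 0.05, 3 member peaks were lower and 0 were higher, against 5.59% and 3.46% of all peaks, or 9.05% in either direction. The fitted log2 fold change was below 0 in 14 of 19 member peaks and in 49.1% of all peaks. Its median was −0.08 over the members and 0.0067 over all peaks. Without the PC1 covariate 12 of 19 were below 0, with a median of −0.21 over the members and −0.01 over all peaks.

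The start of Mc2r, the ACTH receptor gene, was open in brown fat and did not separate the genotypes. This peak, chr18:68427664-68428206, covers the start of 1 of the gene's transcripts and lies in intron 1 of the longer ones. In flox replicates 1, 2 and 3 it held 199, 211 and 235 normalized reads, against 194, 120 and 222 in the AKO replicates. AKO replicate 2 was lowest, and AKO replicate 3 was above 2 of the flox mice. Its log2 fold change in the limma fit was −0.07 (standard error, SE, 0.292, adjusted p = 0.960), with a 95% confidence interval from −0.76 to 0.62. Without flox replicate 3 the value was 0.39.

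The Mc2r peak 38.2 kb downstream of the start, chr18:68389361-68389971 between genes, showed the narrowest spread of the gene's peaks in flox mice. Its normalized reads were 138, 137 and 141 in flox and 97.9, 83.1 and 96.9 in AKO replicates 1, 2 and 3. All AKO mice were below all flox mice, and the AKO mean was 66.7% of the flox mean. For this peak limma gave −0.50 on the log2 scale (SE 0.179, unadjusted p = 0.0273, adjusted p = 0.518), and it kept this sign under each alternative run. A neighbouring peak 39.5 kb downstream overlapped between the genotypes.

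The Mc2r peak 39.4 kb upstream, chr18:68468490-68468864, was among the weakest member peaks. It had 40.2, 43.6 and 54.3 normalized reads in flox and 33.0, 44.4 and 39.3 in AKO replicates 1, 2 and 3. AKO replicate 2 lay above 2 of the flox mice. By limma the log2 fold change came to −0.51 (SE 0.183, unadjusted p = 0.0258, adjusted p = 0.515) and −0.24 without the PC1 covariate, a fall in size by more than 1.5 times.

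The strongest Mc2r peak in brown fat lay 16.0 kb upstream between genes, at chr18:68444456-68446229, and is described here although it fell outside the rule for named peaks. It had 1293, 1025 and 1075 normalized reads in flox and 1036, 744 and 908 in AKO replicates 1, 2 and 3. Only AKO replicate 1 exceeded the lowest flox mouse. The log2 fold change was −0.08 with the PC1 covariate and −0.34 without it. The 6 Mc2r peaks without a per-sample rule, this one included, had log2 fold changes from −0.26 to 0.34, and 0 of the 6 separated the genotypes.

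**Figure D2:**
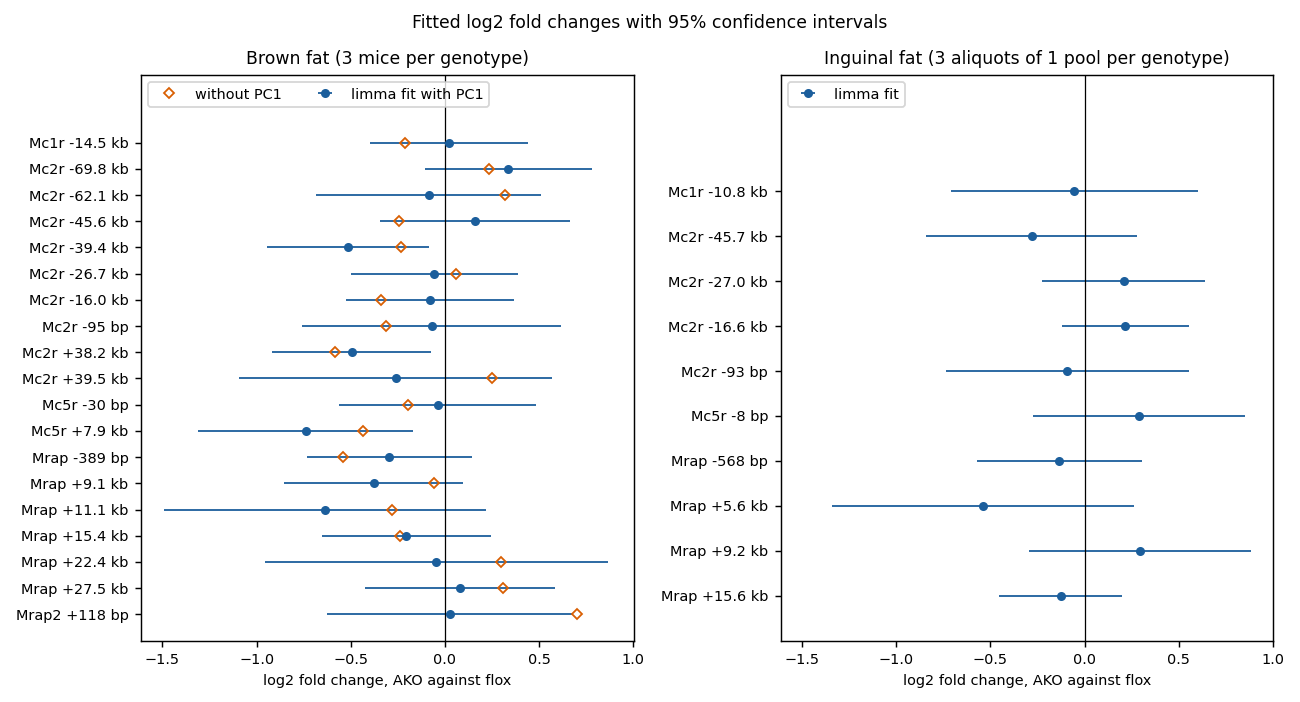
Log2 fold changes of AKO against flox for all 29 member peaks, as limma estimates with 95% confidence intervals (blue) and, for brown fat, as estimates without the PC1 covariate (open orange diamonds). The values with and without PC1 lie apart at several brown fat peaks, such as 0.03 and 0.70 at the Mrap2 start, and intervals exclude 0 only at 3 brown fat peaks, before any adjustment for the number of peaks tested.

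Mc5r, a melanocortin receptor gene expressed in adipocytes of the mouse, lies next to Mc2r on chromosome 18 and had 2 peaks in brown fat. The peak over its start and exon 1, chr18:68337241-68337721, had 184, 179 and 128 normalized reads in flox and 143, 145 and 135 in AKO replicates 1, 2 and 3. The AKO mice lay within the range of the flox mice. Limma estimated a log2 fold change of −0.04 (SE 0.222, adjusted p = 0.971).

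The peak 7.90 kb downstream of the Mc5r start, chr18:68345296-68345518 between genes, had the smallest p of all member peaks. Its normalized reads were 49.1, 38.4 and 62.1 in flox and 32.0, 44.4 and 32.6 in AKO replicates 1, 2 and 3. AKO replicate 2 was above flox replicate 2, so the groups overlapped. Its log2 fold change in the limma fit was −0.74 (SE 0.242, unadjusted p = 0.0181, adjusted p = 0.489) and −0.44 without the PC1 covariate.

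The only brown fat peak assigned to Mc1r, the pigment cell receptor gene, lay 14.5 kb upstream in intron 9 of Tcf25, at chr8:123392426-123392763. It had 180, 173 and 141 normalized reads in flox and 145, 124 and 156 in AKO replicates 1, 2 and 3. The groups overlapped, with flox replicate 3 below 2 of the AKO mice. For this peak limma gave 0.02 on the log2 scale (SE 0.179, adjusted p = 0.980), and it turned to −0.21 without the PC1 covariate.

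Mrap, which encodes the protein that carries MC2R to the surface, had the most open member peaks of brown fat. The peak over its start and exon 1, chr16:90736829-90738808, had 1699, 1409 and 1398 normalized reads in flox and 1058, 863 and 1185 in AKO replicates 1, 2 and 3. Every AKO mouse lay below every flox mouse, and the means were 1502 ± 170 and 1035 ± 162 (SD, n = 3). By limma the log2 fold change came to −0.30 (SE 0.186, adjusted p = 0.672) with the PC1 covariate and −0.54 without it. With each mouse left out it ran from −0.40 to −0.19, the latter without flox replicate 3. The summed promoter reads of 6 adipocyte markers were also lower in AKO mice, at 5248 to 7251 against 7297 to 8442 in flox mice, although the mean at Adipoq was higher in AKO mice (1215 against 932), and their part in the result was not tested.

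The Mrap-assigned peak in Urb1, chr16:90752768-90754543, lies 15.4 kb downstream of the Mrap start over introns 37 and 38 and exon 38 of that gene. Urb1 encodes a protein of ribosome biogenesis. The peak had 1341, 1332 and 1447 normalized reads in flox and 1138, 1070 and 1295 in AKO replicates 1, 2 and 3. The AKO mice were again all below the flox mice, but by a smaller ratio, with an AKO mean of 85.0% of the flox mean against 68.9% at the Mrap start. Limma estimated a log2 fold change of −0.21 (SE 0.190, adjusted p = 0.775), which was −0.053 without flox replicate 3 and −0.32 without AKO replicate 3.

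The peaks inside Mrap were weaker and did not separate the genotypes. The intron 1 peak 9.12 kb downstream had 41.3, 59.9 and 55.6 normalized reads in flox and 42.3, 59.9 and 48.0 in AKO replicates 1, 2 and 3. The peak 11.1 kb downstream, over intron 2 and the coding part of exon 3, had 87.3, 121 and 144 in flox and 61.8, 102 and 133 in AKO mice. Both sets of values interleaved. The log2 fold changes were −0.38 and −0.64 (standard errors 0.202 and 0.363, adjusted p = 0.618 and 0.643 from limma), and without the PC1 covariate they were −0.06 and −0.28. The value at 11.1 kb was −0.18 without AKO replicate 1 and −1.14 without AKO replicate 3.

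Farther downstream in Urb1, 2 more peaks went the other way in their means. The peak 22.4 kb from the Mrap start had 68.5, 84.2 and 81.5 normalized reads in flox and 118, 133 and 55.6 in AKO replicates 1, 2 and 3. The peak at 27.5 kb had 98.2, 119 and 115 in flox and 141, 164 and 110 in AKO mice. In each, AKO replicates 1 and 2 were above all flox mice and AKO replicate 3 was not. The log2 fold changes were −0.05 and 0.08 (standard errors 0.385 and 0.214, adjusted p = 0.980 and 0.933 from limma) and 0.29 and 0.31 without the PC1 covariate.

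The start of Mrap2, the homolog that acts on MC4R, held a weak peak in brown fat, chr9:87144200-87144648. It had 38.1, 70.9 and 59.5 normalized reads in flox and 64.9, 147 and 73.9 in AKO replicates 1, 2 and 3. AKO replicate 2 had the highest value, and AKO replicate 1 lay below flox replicate 2. Its log2 fold change in the limma fit was 0.03 (SE 0.275, adjusted p = 0.984) with the PC1 covariate and 0.70 without it. AKO replicate 2 is also the sample with the highest PC1 score and the fewest reads, and how far these account for the value was not tested.

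**Figure D3:**
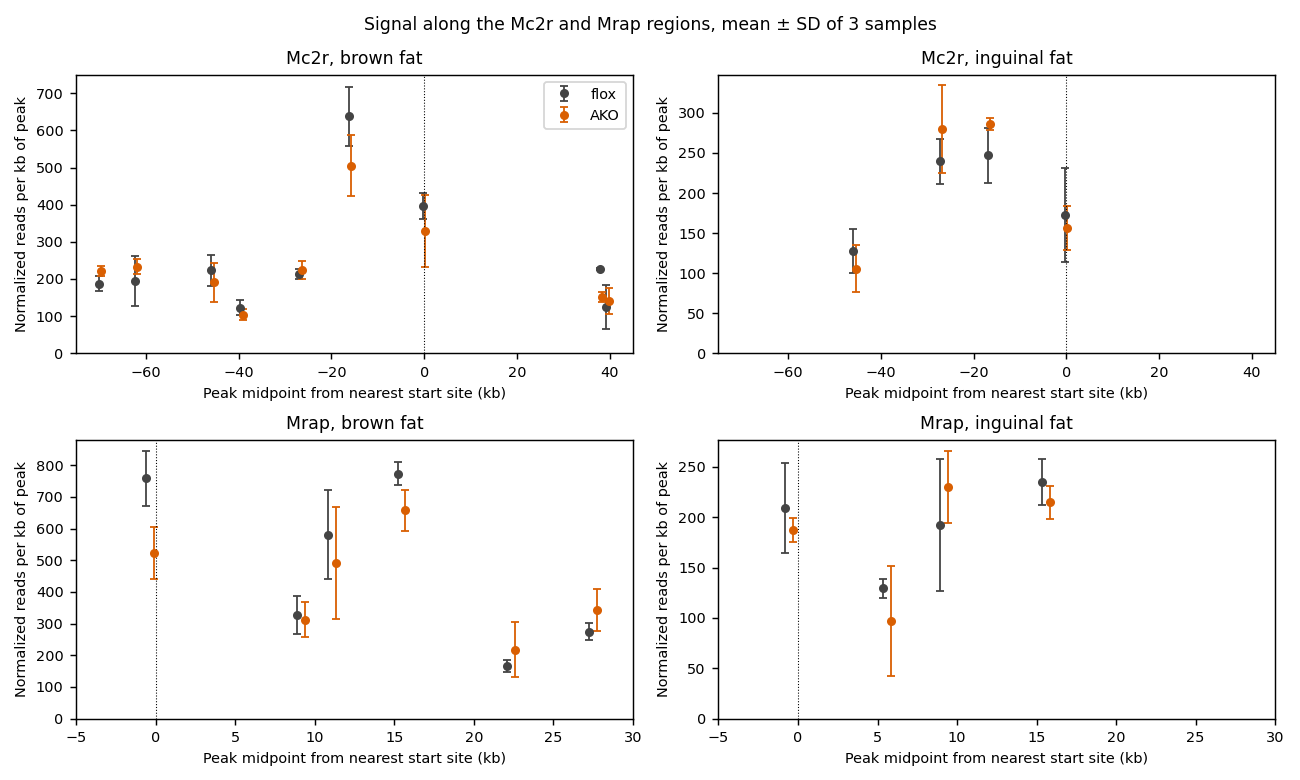
Normalized reads per kb of peak width (linear axis from 0, mean ± SD of 3 samples) against the distance of each peak from the nearest start site, for Mc2r (upper row) and Mrap (lower row) in brown and inguinal fat. In brown fat the means of the Mrap peaks at the start, 11.1 and 15.4 kb and of the Mc2r peak 16.0 kb upstream are the highest, with overlapping SD bars for some, while the inguinal peaks of both genes lie within a narrower range.

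In inguinal fat of cold-acclimated mice, 0 of 10 member peaks separated the genotypes in either direction, against 10.3% of all inguinal peaks in the lower and 10.6% in the higher direction. Without flox replicate 2 and without AKO replicate 1 the count of lower peaks was 2 and 3, with 18.2% and 15.1% over all peaks. The count of higher peaks was 2 without AKO replicate 2, with 16.1% over all peaks, and 1 without flox replicate 1, flox replicate 3 or AKO replicate 3, with 14.2%, 15.3% and 16.5%. No member peak reached an unadjusted limma p under 0.05, which 7.42% of all peaks did as lower and 7.61% as higher. The log2 fold change was below 0 in 6 of 10 member peaks and in 50.1% of all peaks, with a median of −0.07 over the members and −0.00089 over all peaks. Because the aliquots share 1 pool per genotype, these tests cover the spread between aliquots and not between mice.

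At the start of Mc2r, the inguinal peak chr18:68427732-68428135 had 77.0, 43.4 and 88.7 normalized reads in flox and 54.2, 75.4 and 59.9 in AKO replicates 1, 2 and 3. The AKO aliquots lay within the range of the flox aliquots. For this peak limma gave −0.09 on the log2 scale (SE 0.276, adjusted p = 0.906), with a 95% confidence interval from −0.74 to 0.55. With each aliquot left out in turn it ran from −0.40 to 0.11.

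The Mc2r peaks upstream of the start in inguinal fat went in both directions. The peak 16.6 kb upstream, chr18:68445697-68446205, had 120, 112 and 145 normalized reads in flox and 146, 142 and 149 in AKO replicates 1, 2 and 3. Only flox replicate 3 reached the AKO range. By limma the log2 fold change came to 0.22 (SE 0.144, adjusted p = 0.523). The peak 27.0 kb upstream had 84.1, 101 and 82.6 in flox and 111, 121 and 81.3 in AKO aliquots, with a log2 fold change of 0.21. The peak 45.7 kb upstream had 32.8, 47.8 and 34.4 in flox and 40.3, 22.8 and 32.1 in AKO aliquots, with a log2 fold change of −0.28. In both, the groups overlapped.

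The start of Mc5r in inguinal fat, chr18:68337304-68337702, had 72.7, 43.4 and 76.6 normalized reads in flox and 87.6, 65.1 and 78.1 in AKO replicates 1, 2 and 3. Flox replicate 2 was low here, as it was at the Mc2r and Mrap starts. Limma estimated a log2 fold change of 0.29 (SE 0.240, adjusted p = 0.613). The Mc1r peak 10.8 kb upstream in intron 12 of Tcf25 had 60.6, 41.1 and 80.0 in flox and 66.9, 63.9 and 41.7 in AKO aliquots. Its groups overlapped, and the log2 fold change was −0.05.

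The start-site peak of Mrap in inguinal fat, chr16:90736750-90738529, had 417, 280 and 419 normalized reads in flox and 317, 357 and 327 in AKO replicates 1, 2 and 3. Flox replicate 2 was the lowest of all 6 aliquots and the other flox aliquots were the highest. Its log2 fold change in the limma fit was −0.13 (SE 0.188, adjusted p = 0.778). The peak in Urb1, 15.6 kb downstream, had 161, 188 and 158 in flox and 166, 155 and 142 in AKO aliquots, with a log2 fold change of −0.13.

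The inguinal peaks inside Mrap were the weakest of the gene. The intron 1 peak 5.60 kb downstream, which had no counterpart among the brown fat member peaks, held 42.8, 38.9 and 44.8 normalized reads in flox and 51.9, 18.3 and 24.6 in AKO replicates 1, 2 and 3. AKO replicate 1 was above all flox aliquots and the other AKO aliquots were below them. For this peak limma gave −0.54 on the log2 scale (SE 0.342, unadjusted p = 0.157, adjusted p = 0.503), the largest in size among the inguinal member peaks with all aliquots. It was −0.96 without AKO replicate 1 and −0.23 without AKO replicate 2. The peak 9.17 kb downstream had 63.4, 42.2 and 32.7 in flox and 62.2, 45.7 and 57.7 in AKO aliquots, with a log2 fold change of 0.29.

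**Figure D4:**
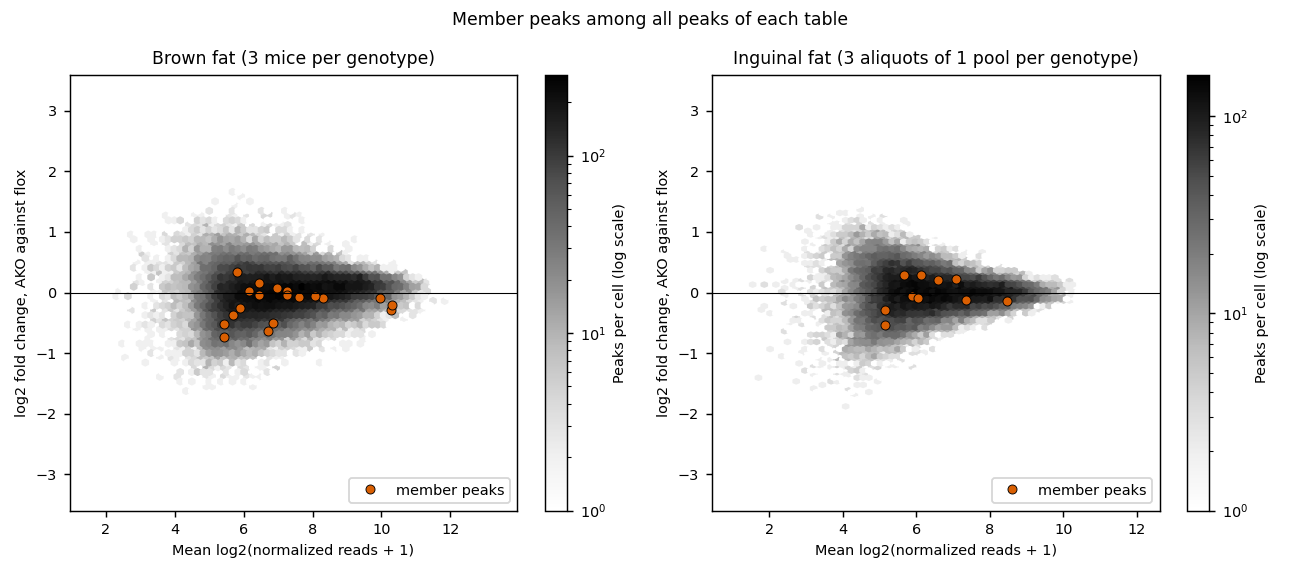
Log2 fold change of AKO against flox by mean log2(normalized reads + 1) for all peaks of each depot (grey cells, darker for more peaks on a log scale) with the member peaks as orange points. In brown fat 14 of 19 member peaks lie below 0, and in inguinal fat 6 of 10 do.

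Between the depots, 8 of the 10 inguinal member peaks overlapped a brown fat member peak, and 80.5% of all inguinal peaks overlapped a brown fat peak. Of the 19 brown fat member peaks 8 overlapped an inguinal one, against 53.8% of all brown fat peaks. The log2 fold changes of 3 of the 8 pairs had the same sign in the depots, with the PC1 covariate in brown fat. Without that covariate, 2 brown fat values turned to the sign of the inguinal value. They were −0.24 at the Mc2r peak 45.6 kb upstream and 0.06 at the Mc2r peak 26.7 kb upstream. The share of equal signs over all overlapping pairs was not computed. As the tables were normalized separately, levels were set against the other peaks of the same depot, per kb of peak width in flox samples. The Mrap start-site peak was at the 94.6th percentile in brown fat and the 67.8th in inguinal fat, and the peak in Urb1 was at the 94.9th and the 75.0th. The Mc2r start-site peak was at the 73.9th and the 51.8th percentile, and the Mc5r start-site peak was at the 66.5th and the 45.6th. By normalized reads in the whole peak, the Mrap start was at percentiles 99.2 in brown and 94.5 in inguinal fat. The peak in Urb1 was then at 98.9 and 78.8, the Mc2r start at 67.9 and 49.8, and the Mc5r start at 59.7 and 46.3. The Mc2r peak 26.7 kb upstream, 1234 bp wide in brown fat and 373 bp in inguinal fat, was at the 38.8th and the 76.0th percentile per kb, but by normalized reads in the whole peak it was at the 73.4th and the 59.6th.

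The order of levels in brown fat of flox mice was led by the Urb1 peak with 773 ± 36.2 normalized reads per kb (SD, n = 3), the Mrap start-site peak with 759 ± 86.1 and the Mc2r peak 16.0 kb upstream with 637 ± 80.3. The first pair differed by less than the SD of either, and the Mrap start and the Mc2r peak by less than the sum of their SDs. The Mrap peak 11.1 kb downstream came next with 581 ± 140, a range that overlaps those of the Mc2r peak and the Mrap start, followed by the Mc1r peak with 487 ± 61.2. The starts of Mc2r and Mc5r came sixth and seventh with 396 ± 34.1 and 340 ± 64.2, and their ranges of 1 SD overlapped. The Mrap2 start, with 125 ± 37.1, was the seventeenth of the 19. In inguinal fat the Mc2r peak 16.6 kb upstream led with 247 ± 34.2 and the Mc2r peak 27.0 kb upstream followed with 239 ± 27.6, within 1 SD of each other.

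The promoter peaks that varied most like the Mrap start-site peak were named by their Pearson correlation over the 12 samples, with log2 values centred within each depot and 10821 promoter peaks that had a counterpart in the other depot. They were A230028O05Rik (0.951), Pparg (0.942), Nedd4l (0.935), Ormdl3 (0.933) and Rps23 (0.932). Those most like the Mc2r start-site peak were Gpx8 (0.933), Rpusd2 (0.888), Retn (0.886), Stam2 (0.872) and Selenop (0.866). The values of a sample share its library and its depth, so these correlations are a description only.

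The ligand side of the pathway was covered by 10 genes, among them Pomc, which encodes the precursor of ACTH and the melanocortins, the antagonist genes Asip and Agrp, and the processing and accessory genes Pcsk1, Pcsk2, Cpe, Prcp, Atrn, Atrnl1 and Mgrn1. In brown fat 9 of the 10 had 30 peaks and in inguinal fat 7 had 15 peaks, and limma, like DESeq2, called 0 in each. In brown fat 2 peaks were separated in the lower and 4 in the higher direction, which is 6.67% and 13.3% against 8.84% and 8.77% of all brown fat peaks, with a median log2 fold change of 0.08. Both lower ones were peaks of Mgrn1, a ubiquitin ligase gene that affects pigment-type switching, and the stronger difference lay 6.18 kb downstream of its start. That peak had 108, 113 and 80.2 normalized reads in flox and 60.8, 27.0 and 42.2 in AKO replicates 1, 2 and 3, with a limma log2 fold change of −0.71 (adjusted p = 0.515), or −1.25 without the PC1 covariate. In inguinal fat 0 peaks (0%) were separated in the lower and 1 (6.67%) in the higher direction, against 10.3% and 10.6% of all inguinal peaks. The higher one was the start of Atrn, with 252, 278 and 250 in flox and 318, 293 and 338 in AKO aliquots.

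Downstream of the receptors, 31 genes of the cyclic AMP and protein kinase A cascade were counted. In brown fat 30 of them had 176 peaks, of which 21 (11.9%) were separated in the lower and 13 (7.39%) in the higher direction, against 8.84% and 8.77% of all peaks, with a median log2 fold change of −0.04. Limma called none. At an unadjusted p under 0.05, 11 were lower and 5 higher, where 5.59% and 3.46% of all peaks were. DESeq2 called 2 of the 176 as lower, against 0.217% of all brown fat peaks. The 2 were a peak of Gnas, the stimulatory G protein gene, and a peak 43.3 kb upstream of Prkar2b, a regulatory subunit gene of protein kinase A. The Prkar2b peak had 938, 719 and 692 normalized reads in flox and 477, 319 and 390 in AKO replicates 1, 2 and 3, with every AKO mouse below every flox mouse and a limma log2 fold change of −0.65 (adjusted p = 0.476, and 0.0822 by DESeq2). At the Gnas peak the groups overlapped, with 133, 177 and 234 in flox and 118, 166 and 102 in AKO mice. Its limma log2 fold change was −1.01 (adjusted p = 0.417, and 0.0590 by DESeq2). Without the PC1 covariate the Gnas value was −0.49 and the Prkar2b value −0.99.

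In inguinal fat all 31 cascade genes had 99 peaks, with 8 (8.08%) separated in the lower and 13 (13.1%) in the higher direction, against 10.3% and 10.6% of all peaks, and a median log2 fold change of 0.05. Limma called none. At an unadjusted p under 0.05, 7 were lower and 11 higher, where 7.42% and 7.61% of all peaks were. DESeq2 called 1 of the 99 as lower, against 0.569% of all inguinal peaks. The called peak lay just upstream of Adcy6, an adenylyl cyclase gene. It had 342, 291 and 345 normalized reads in flox and 251, 225 and 247 in AKO replicates 1, 2 and 3. Every AKO aliquot was below every flox aliquot there, and the log2 fold change was −0.43 (adjusted p = 0.221 from limma and 0.0655 from DESeq2). The cascade peaks with the smallest limma p went both ways. Those of Adcy9 and Prkar2b were separated in the higher direction, with log2 fold changes of 0.59 each (limma adjusted p = 0.169 and 0.203). That of Adcy7 was separated in the lower direction, by −0.66 (limma adjusted p = 0.179).

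Of 9 other hormone receptor genes, 6 had 41 peaks in brown fat and 7 had 22 peaks in inguinal fat, and limma and DESeq2 called none. In brown fat 6 peaks (14.6%) were separated in the lower and 2 (4.88%) in the higher direction, against 8.84% and 8.77% of all peaks, and in inguinal fat 2 (9.09%) and 1 (4.55%), against 10.3% and 10.6%. The log2 fold change was below 0 in 19 and above 0 in 22 of the brown fat peaks, with a median of 0.02. In inguinal fat 11 were below and 11 above, with a median of −0.02. The peaks with the smallest p in brown fat, 1 each of Prlr, Ghr and Tshr, the receptor genes for prolactin, growth hormone and thyrotropin, were all separated in the lower direction, with log2 fold changes of −0.94, −0.63 and −0.45 (limma adjusted p = 0.480, 0.525 and 0.553). In inguinal fat a Ghr peak was separated in the lower direction, by −0.36 on the log2 scale (limma adjusted p = 0.291), and 1 of 7 Oxtr peaks in the higher direction. That peak, 20.7 kb upstream of the oxytocin receptor gene, had 22.8, 31.1 and 18.1 normalized reads in flox and 38.0, 35.4 and 33.1 in AKO replicates 1, 2 and 3. Its aliquots did not overlap, and the log2 fold change was 0.58 (unadjusted p = 0.0234, adjusted p = 0.256 from limma). This Oxtr peak was weak, with 21 to 33 reads per aliquot and a level at percentile 8.16 of inguinal peaks. The smallest p of the list in inguinal fat was at the Lhcgr promoter peak, with 12 to 33 reads per aliquot. The groups overlapped there, and the log2 fold change was 0.96 (unadjusted p = 0.0202, adjusted p = 0.244 from limma).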

How the data were processed

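ATAC-seq was analysed in 12 samples, 3 flox and 3 AKO samples of each of brown and inguinal fat. Per the submitters' processing notes and the study's methods, the authors mapped reads to mm10 with BWA 0.7.17-r1188, marked duplicates with Picard 2.8.14, kept autosomal reads of high mapping quality, called broad peaks per sample with MACS2 2.1.1.20160309 and kept those present in 2 or more replicates of either genotype. As signal, the deposited tables give reads per peak that the authors divided by 1 size factor per sample, and multiplying back gave whole reads, to within 1e-05, for 100% of values. The deposited fold changes and p-values of the authors' own DESeq2 comparison were not used. The deposited starts count from 0, so 1 was added.

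The median peak held between 70 and 226 reads per brown fat sample and between 62 and 98 per inguinal sample, which limits the precision at weak peaks. AKO was compared with flox by limma 3.58.1 with a pseudocount of 1, with DESeq2 1.42.0 and edgeR 4.0.16 on the recovered reads as alternatives, under R 4.3.3. In brown fat the main fit kept the study's PC1 covariate. Samples were grouped by their titles, and no column with values per sample was left out. The gene of each peak is the one that the authors assigned. Distances and the exons or introns that a peak covers follow RefSeq transcripts of GRCm38.p6, with distances from the nearest start site to the middle of the peak. Of brown fat peaks whose symbol matched a transcript, 84.3% had the deposited distance. The deposited distance was −506 bp at the Mrap start and −122 bp at the Mc5r start, against −389 and −30 bp here. Values per sample are given for every peak of a gene with at most 6 peaks in a table and, for Mc2r in brown fat, for the peaks within 5 kb of a start and the 2 with the smallest p. The members, lists and tests were chosen with earlier results of these data known. Messenger RNA was not analysed here.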

Additional observations from a re-analysis of the deposited data

How the results depend on the processing

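No member peak was called under any alternative run, and the smallest adjusted p that limma, limma-trend, DESeq2 or edgeR gave a named member peak was 0.277 in brown and 0.218 in inguinal fat. Over all peaks, where limma called none, the counts in brown fat were 1 lower with a pseudocount of 10, 44 lower and 9 higher by limma-trend, 127 and 47 by DESeq2 and 67 and 17 by edgeR. In inguinal fat they were 134 lower and 180 higher when peaks averaging under 50 normalized reads were left out, 792 and 648 by limma-trend, 225 and 195 by DESeq2 and 996 and 850 by edgeR, and the cause was not tested. With single samples left out, the count of brown fat member peaks without overlap ran from 3 to 5 (lower) and 0 to 4 (higher). In inguinal fat it ran from 0 to 3 and from 0 to 2. The shares over all peaks then ran from 12.3% to 16.9% and from 11.4% to 19.8% in brown fat. Those of inguinal fat ran from 14.2% to 18.2% and from 14.2% to 17.6%. With all samples they were 8.84% and 8.77% in brown fat and 10.3% and 10.6% in inguinal fat. Leaving out a sample can only keep or raise such a count, so a rise alone shows no dependence on that sample. These counts without overlap, and the fit with a replicate block and no PC1 covariate, were added after the values were seen.

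Of the log2 fold changes of 13 named brown fat peaks, 7 kept their sign under every alternative and every sample left out, and of 10 inguinal ones 5 did. Reversed values in brown fat follow. The Mrap peak at 22.4 kb (main value −0.05) gave 0.027 with cyclic loess, 0.29 without the PC1 covariate, with or without a replicate block, 0.051 with DESeq2 and 0.043 with edgeR. The Mc5r start (−0.04) gave 0.013 with cyclic loess, 0.0046 with PC1 of the 500 most variable peaks and 0.029 with a replicate block, which gave 0.030 at the Mc2r start too. The Mc1r peak (0.02) gave −0.0076 with total reads as normalization and −0.21 without the PC1 covariate, with or without a replicate block. The Mrap2 start (0.03) gave −0.00095 with PC1 of the 500 most variable peaks, −0.029 with DESeq2 and −0.033 with edgeR. In inguinal fat a PC1 covariate, which there separates the genotypes, gave 0.68 at the Mrap start, 0.51 at the Mc2r start and −0.17 and −1.89 at the Mc2r peaks 16.6 and 27.0 kb upstream.

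With samples left out in turn, signs turned at these peaks, given as ranges. In brown fat the range was −0.56 to 0.50 at the Mrap peak at 22.4 kb, −0.10 to 0.27 at that at 27.5 kb, −0.39 to 0.052 at the Mc5r start, −0.30 to 0.39 at the Mc2r start, −0.062 to 0.10 at the Mc1r peak and −0.49 to 0.24 at the Mrap2 start. In inguinal fat it was −0.40 to 0.11 at the Mc2r start and −0.30 to 0.17 at the Mc1r peak. Without a turn of sign, values moved by over 1.5 times at other inguinal peaks, with ranges of −0.33 to −0.036 at the Mrap start, 0.079 to 0.55 and −0.18 to −0.047 at the Mrap peaks at 9.17 and 15.6 kb, 0.032 to 0.44 at the Mc5r start and 0.14 to 0.32, 0.092 to 0.38 and −0.47 to −0.069 at the Mc2r peaks 16.6, 27.0 and 45.7 kb upstream.

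Whether replicate numbers pair the samples was checked by correlating deviations from the group means, which with 3 samples per group cannot exclude a pairing. In brown fat flox replicates 1 and 2 correlated best with their own number, and flox replicate 3 with AKO replicate 2 (0.481). The correlations of same-numbered deviations were 0.494, 0.0632 and −0.236 in brown fat and −0.0387, −0.0497 and −0.0566 in inguinal fat, and not every sample correlated best with its own number. With a replicate block, 0 member peaks were called in each depot.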
